A study of Mus musculus with 18 samples.

Results

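The average difference between Fgfr2+/S252W and Fgfr2+/+ embryos over mandibular bone, Meckel's cartilage (MC) and condylar cartilage was measured, gene by gene, together with the direction of that difference in each of the 3 tissues. All 18 libraries of the series entered, 9 of each genotype, from 3 Fgfr2+/S252W embryos and 3 Fgfr2+/+ littermates that each gave 1 library per tissue. All embryos were female and at embryonic day 16.5, on a C57BL/6 background by the labels (C57BL6/J in the study's methods), and the mutants were heterozygous for the S252W allele of Fgfr2, the only allele or treatment that set the groups apart. Each tissue was cut from coronal cryosections by laser capture, its RNA was amplified, and 11469 genes of 38243 in the files were expressed highly enough to test (above 1 FPKM, a count of fragments scaled by exon length and library total, in at least 50% of the libraries). A captured region is a mixture of cells, so fewer cells of a type and less RNA per cell cannot be told apart.

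FGFR2 is a receptor tyrosine kinase for fibroblast growth factors. Ligand binding to the receptor and to heparan sulfate activates the RAS-ERK cascade, which induces transcription factors such as ETV5 and feedback inhibitors such as the SPRY and SPRED proteins. The S252W substitution lies in the linker between the immunoglobulin-like domains of the receptor, broadens and strengthens its ligand binding, and causes Apert syndrome in people. In the jaw, FGF signalling acts on both the osteoblasts that lay down bone and the chondrocytes of cartilage, so a response common to the 3 tissues and a response of each tissue alone can both be asked of these libraries.

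Library totals ran from 8218548 to 15585778 counted fragments, of which 19.4% to 38.1% came from mitochondrially encoded genes. That share was 36.0%, 34.8% and 20.4% in Fgfr2+/+ bone and 23.4% to 23.6% in Fgfr2+/S252W bone. In condylar cartilage it was 19.45% to 23.55% against 23.62% to 27.70%. Gm42418, which overlaps ribosomal RNA, took 24.1% to 39.4% of MC counts. In bone it took 8.57% to 9.33% in Fgfr2+/+ and 5.58% to 6.49% in Fgfr2+/S252W. The part of these shares in the differences was not tested. Bone libraries held the bone markers Col1a1 and Ibsp and condylar libraries held Col2a1, Acan and Col10a1 at high levels in all 6 libraries of each. Condylar libraries held the bone markers too, with Ibsp at 2117 to 8670 CPM (counts scaled to a common library total with TMM, the trimmed mean of M values) against 3547 to 7099 CPM in bone and Col1a1 at 1903 to 8365 against 7900 to 23542 CPM. The MC libraries did not form such an even set. In them Col2a1, the main collagen of cartilage, was at 212, 2473 and 2497 CPM in Fgfr2+/+ and at 7201, 1563 and 1641 CPM in Fgfr2+/S252W, and the bone gene Ibsp ran from 1.87 to 230.1 CPM. The median SD of log2 CPM within a genotype was 0.21 in bone, 0.30 in condylar cartilage and 0.45 in MC. An average with equal weight per tissue therefore takes more of its error from MC than from either other tissue. The level of Fgfr2 does not check the genotype labels, since S252W is a substitution in the protein and counts per gene do not tell the alleles apart.

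Few genes passed the test of a common shift. On the average over the 3 tissues, 2 of 11469 genes (0.0174%) passed a Benjamini-Hochberg adjusted p below 0.05 in limma, with embryo as a random block, and both fell in Fgfr2+/S252W: Zfp185, a LIM-domain protein of the actin cytoskeleton, and Cops9, a small component of the COP9 signalosome. Their fitted averages were 3.09-fold and 1.88-fold lower in Fgfr2+/S252W. At an unadjusted p below 0.05, 745 genes were higher (6.5% of those tested) and 725 lower (6.32%), and at an adjusted p below 0.1 there were 12 genes, 7 of them higher. The count at 0.05 was fragile: without MC it was 6 (Itgav, Penk, Enpp1, Tppp3, Mindy2 and Ank, named after their values were seen), none of them Zfp185 or Cops9, and without bone it was 0 (884 at an unadjusted p below 0.05). Leaving out single libraries gave 0 to 39 calls, the highest without Fgfr2+/+ bone replicate 3, and leaving out that library's embryo gave 70. With 1 mean value per embryo, limma called 0 genes (1085 at an unadjusted p below 0.05), and DESeq2 on the 18 libraries called 75, 51 of them lower and with Zfp185 and Cops9 among them. EdgeR on counts summed per embryo called 16, of which 12 were higher, and neither Zfp185 (adjusted p 0.143) nor Cops9 (adjusted p 0.112) was among them.

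Zfp185 (ENSMUSG00000031351, chrX:72987339-73031543, plus strand) had the larger average of the called genes, and it came from bone and MC. In bone it was at 16.0, 12.6 and 7.4 CPM in Fgfr2+/+ and at 1.54, 2.53 and 2.03 CPM in Fgfr2+/S252W. In MC it was at 25.9, 15.7 and 11.8 CPM against 2.67, 2.48 and 6.48 CPM. The genotypes did not overlap in either tissue. In condylar cartilage the values overlapped, at 20.1, 22.2 and 17.1 CPM in Fgfr2+/+ and 21.6, 24.8 and 10.8 CPM in Fgfr2+/S252W. The log2 differences were -2.47 ± 0.45 (SE), -2.34 ± 0.56 and -0.07 ± 0.31 for bone, MC and condylar cartilage, and the average of -1.63 ± 0.26 had an adjusted p of 0.0368. The F test of a difference between the 3 tissues' effects gave Zfp185 an adjusted p of 0.174. A gene thus counted as lower in all 3 tissues although its condylar difference was a fraction of its standard error.

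Cops9 (ENSMUSG00000073616, chr1:92637145-92641985, minus strand) differed most in MC. There it was at 14.7, 13.4 and 15.7 CPM in Fgfr2+/+ and at 3.07, 4.73 and 4.55 CPM in Fgfr2+/S252W, without overlap. In bone the values were 19.1, 18 and 13.3 CPM against 10.6, 13.8 and 10 CPM, and in condylar cartilage 15.5, 18.4 and 20 CPM against 16.4, 12.2 and 13.7 CPM, with overlap in both tissues. The log2 differences were -0.53 ± 0.20, -1.87 ± 0.36 and -0.33 ± 0.22 for bone, MC and condylar cartilage. The average was -0.91 ± 0.15 with an adjusted p of 0.0424, which became 0.0599 without the embryo block and 0.489 without bone.

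The promoters of the called genes, and of Ank and Sema3a, which had small p-values among genes of higher level, are shown for their sequence context. Each is the 250 bases before the transcription start on the gene's strand in RefSeq (GRCm38.p6, the primary build of the files), with matches to CCGGAA (the core of ETS factor sites, the family of ETV5) and TGANTCA (AP-1) on either strand in capitals.
Zfp185, chrX:72987089-72987338, plus strand: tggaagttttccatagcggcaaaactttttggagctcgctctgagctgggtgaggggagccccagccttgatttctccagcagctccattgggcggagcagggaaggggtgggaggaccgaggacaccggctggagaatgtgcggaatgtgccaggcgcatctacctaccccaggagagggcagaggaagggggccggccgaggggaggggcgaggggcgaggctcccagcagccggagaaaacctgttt
Cops9, chr1:92641986-92642235, minus strand: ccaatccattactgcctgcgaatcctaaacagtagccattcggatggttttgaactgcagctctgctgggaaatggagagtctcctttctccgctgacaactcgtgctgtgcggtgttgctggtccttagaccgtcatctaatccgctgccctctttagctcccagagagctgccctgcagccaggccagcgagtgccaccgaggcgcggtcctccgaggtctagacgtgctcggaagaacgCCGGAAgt
Ank, chr15:27466427-27466676, plus strand: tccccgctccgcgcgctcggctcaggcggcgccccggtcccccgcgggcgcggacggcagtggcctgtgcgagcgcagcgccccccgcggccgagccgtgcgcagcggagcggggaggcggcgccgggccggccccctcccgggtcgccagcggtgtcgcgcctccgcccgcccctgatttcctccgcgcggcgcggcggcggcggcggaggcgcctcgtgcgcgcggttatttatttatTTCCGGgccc
Sema3a, chr5:13396534-13396783, plus strand: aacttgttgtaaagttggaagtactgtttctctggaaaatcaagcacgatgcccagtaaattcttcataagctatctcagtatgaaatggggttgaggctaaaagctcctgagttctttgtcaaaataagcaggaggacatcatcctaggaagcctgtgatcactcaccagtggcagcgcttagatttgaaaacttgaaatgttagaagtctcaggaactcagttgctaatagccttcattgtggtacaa
Cops9 and Ank held 1 CCGGAA match each and none of the 4 held TGANTCA. Over all 32851 promoters of the same length in the table, 12% held the first motif and 6.75% the second.

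The direction of the difference was shared by all 3 tissues for 3358 genes (29.3% of those tested), of which 1711 were higher (14.9%) and 1647 lower (14.4%). The 6 mixed patterns held 1182 to 1630 genes each (10.3% to 14.2%). Signs also agree in all 3 tissues for some genes without any effect, so 3358 is not a count of genes with a common response. The patterns with all tissues alike held the most genes, with the pattern of lower in bone, higher in MC and lower in condylar cartilage close behind at 1630. This order rests on the scaling. With upper quartile factors 1482 genes were higher and 1939 lower in all tissues, and that mixed pattern held 2008. With library totals alone, under which the median over all genes was 0.18 for bone, -0.06 for MC and -0.12 for condylar cartilage, 1317 were higher and 1350 lower in all tissues, and higher in bone with lower in both cartilages was the most frequent at 3023. The shared genes had small differences. Their median absolute average was 0.29 on the log2 scale, against 0.16 over all genes, and 100 of the 3358 had an average of at least 1 in size. Among the 1470 genes with an unadjusted p below 0.05 on the average, 1109 kept 1 direction in all tissues, which the average itself favours. The largest of the 3 differences lay in MC for 714 of these 1109 genes, in bone for 245 and in condylar cartilage for 150. Over all genes too the median absolute log2 difference was largest in MC, at 0.35 against 0.20 in bone and 0.18 in condylar cartilage.

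**Figure D1:**
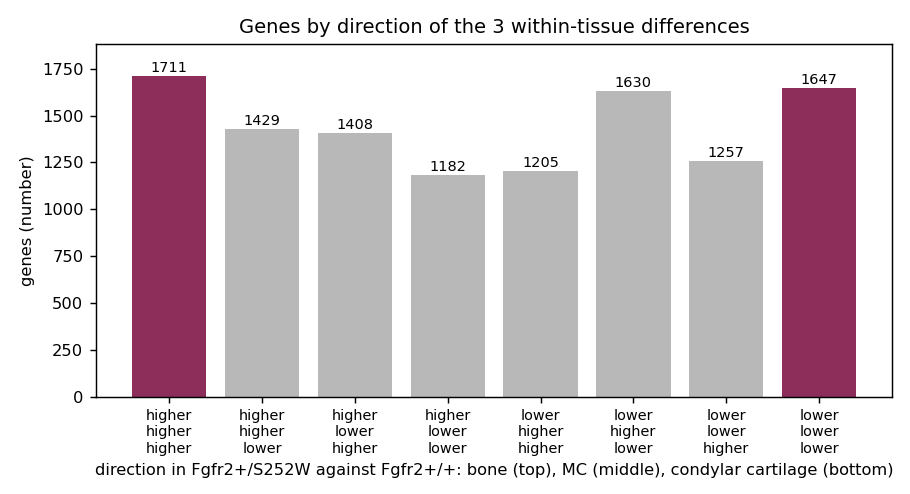
Number of genes (vertical axis) with each combination of directions in Fgfr2+/S252W against Fgfr2+/+, read down as bone, MC and condylar cartilage. The 2 coloured bars, 1711 and 1647 genes, are those with 1 direction in all tissues, and the grey bars hold 1182 to 1630 genes.

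A stricter reading asked each tissue for its own difference. At an unadjusted p below 0.05, 243 genes passed in 2 or 3 tissues, and 82 of these (33.7%) had 1 direction in all tissues, where 29.3% of all genes did. Of the 10 genes that passed in all 3 tissues, 4 had 1 direction: Aldh1a3 and Eya2, lower in Fgfr2+/S252W, and Sema3a and Unc5c, higher. These 4 were among the 20 genes named by smallest p on the average and none of them passed the adjusted threshold there.

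Aldh1a3 (ENSMUSG00000015134, chr7:66390892-66427517, minus strand) encodes an enzyme that makes retinoic acid. It was at 42.6, 45.8 and 34.7 CPM in Fgfr2+/+ bone and at 28.2, 17 and 12.5 CPM in Fgfr2+/S252W bone. In MC it was at 19.7, 13.4 and 5.25 CPM against 1.47, 1.58 and 5.08 CPM, and in condylar cartilage at 264, 285 and 302 CPM against 184, 187 and 214 CPM. The genotypes did not overlap in any tissue, although in MC the nearest libraries were almost equal. The average was -1.37 ± 0.24 with an adjusted p of 0.0579.

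Eya2 (ENSMUSG00000017897, chr2:165595032-165771727, plus strand), a transcriptional cofactor with phosphatase activity, was at a low level in bone and condylar cartilage. In bone it was at 6.29, 6.31 and 2.88 CPM in Fgfr2+/+ against 2.30, 1.68 and 1.07 CPM, and in MC at 18.3, 17.2 and 9.75 CPM against 4.14, 8.33 and 9.98 CPM. In condylar cartilage all libraries were below 2 CPM. The average was -1.69 ± 0.37, with an adjusted p of 0.111, and the MC values overlapped.

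Sema3a (ENSMUSG00000028883, chr5:13396784-13602565, plus strand), a secreted guidance protein that also acts on bone cells, had the most even differences of the 4. In bone it was at 90.1, 82.6 and 63.5 CPM in Fgfr2+/+ and 115, 124 and 134 CPM in Fgfr2+/S252W. In MC it was at 92.3, 89.1 and 69.7 CPM against 116, 125 and 151 CPM, and in condylar cartilage at 4.88, 2.91 and 3.88 CPM against 5.82, 8.77 and 6.80 CPM. No tissue had overlapping genotypes, and the log2 differences were 0.67 ± 0.16, 0.63 ± 0.18 and 0.85 ± 0.35 for bone, MC and condylar cartilage. The average of 0.72 ± 0.14 had an adjusted p of 0.0867. It passed in 8 of 44 settings, among them an additive model of tissue and genotype (adjusted p 0.00917), and not with 1 mean value per embryo (0.233), on embryo sums (0.0725) or without bone (0.545).

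Unc5c (ENSMUSG00000059921, chr3:141465564-141834924, plus strand) encodes a receptor for netrins. Its differences were 0.53 ± 0.24, 0.63 ± 0.30 and 1.16 ± 0.31 for bone, MC and condylar cartilage, with an average of 0.77 ± 0.16 and an adjusted p of 0.0937. In bone its values were 104, 87.5 and 157 CPM in Fgfr2+/+ against 156, 156 and 178 CPM, so the genotypes overlapped, as they did in MC (51.2, 78.8 and 64.7 against 124, 93.2 and 76.1 CPM) and in condylar cartilage (38.5, 25.3 and 17.7 against 78.4, 61.2 and 37.8 CPM).

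**Figure D2:**
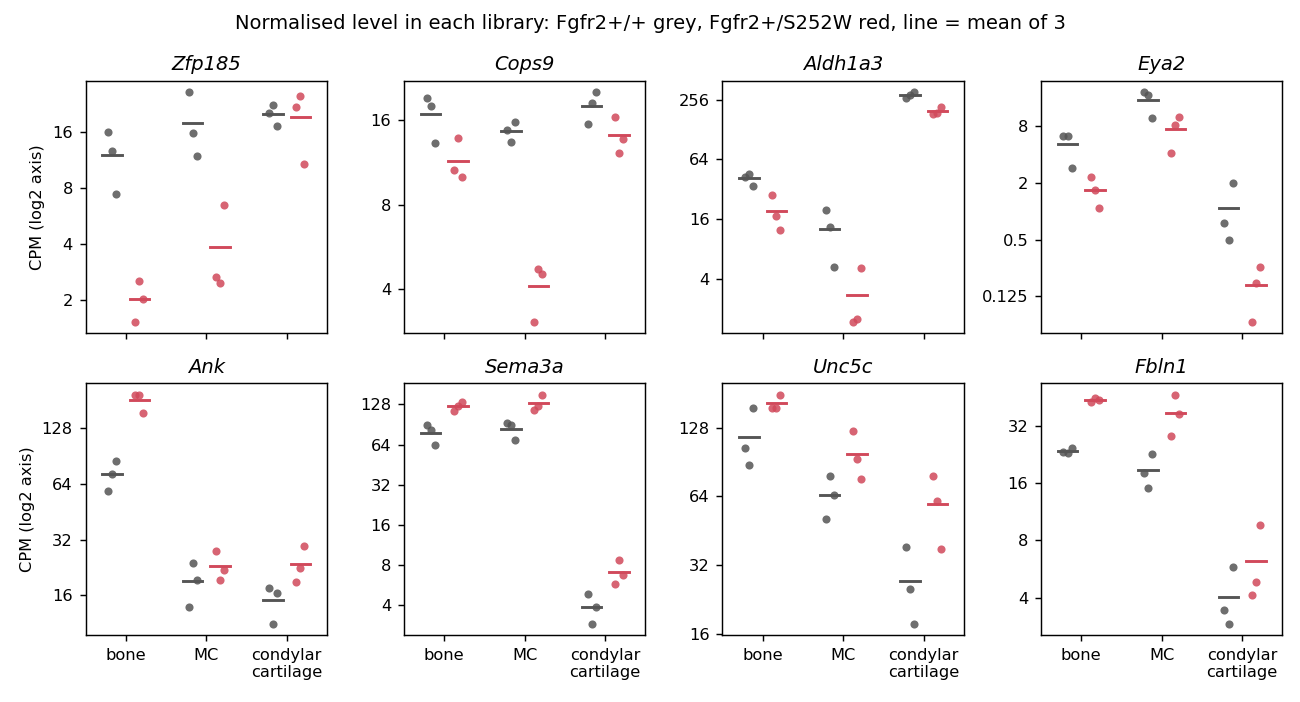
CPM in each library (points, log2 axis) with the mean of 3 (line) for 8 genes in bone, MC and condylar cartilage, Fgfr2+/+ in grey and Fgfr2+/S252W in red. Zfp185 is apart in bone and MC only, and Aldh1a3 and Sema3a are apart in every tissue.

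Ank (ENSMUSG00000022265, chr15:27466677-27594909, plus strand), a membrane protein that passes pyrophosphate, an inhibitor of mineral deposition, out of the cell, had the smallest p among genes of higher average. In bone it was at 58.8, 72.5 and 85.2 CPM in Fgfr2+/+ and at 194, 194 and 156 CPM in Fgfr2+/S252W, a log2 difference of 1.34 ± 0.18. In condylar cartilage it was at 17.5, 11.2 and 16.5 CPM against 18.8, 22.4 and 29.8 CPM, again without overlap, and in MC at 13.8, 24.1 and 19.3 CPM against 27.7, 19.4 and 21.9 CPM, with overlap. The average was 0.78 ± 0.14 with an adjusted p of 0.0579. In bone alone Ank rose, with a limma adjusted p of 0.00265.

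Other genes with small p-values among those of higher average were Sh2d3c, Acvr1, Wdr20, Fbln1, Syne2 and Lmf1, and none of them passed the adjusted threshold. Acvr1, a type I receptor for BMPs, had differences of 0.47, 0.85 and 0.30 for bone, MC and condylar cartilage (average 0.54 ± 0.11, adjusted p 0.0937). Fbln1, the matrix protein fibulin-1, was at 23.4, 23.1 and 24.4 CPM in Fgfr2+/+ bone against 42.7, 44.8 and 44.0 CPM and was apart in MC too (average 0.78 ± 0.16, adjusted p 0.0937). Wdr20 and Lmf1, a lipase maturation factor, owed their averages to MC, with differences of 2.19 and 1.65 there and of at most 0.40 in either other tissue. Sh2d3c, an adaptor protein, averaged 0.72 ± 0.14, with 0.24, 1.40 and 0.52 for bone, MC and condylar cartilage. Syne2, which links the nucleus to the cytoskeleton, averaged 0.60 ± 0.13, with 0.38, 0.92 and 0.49. At least 1 exon of Sh2d3c overlaps an antisense gene, and the counts did not use strand.

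Among genes of lower average with 1 direction in all tissues, Csrp1, Psmd9, Rps21, Selenof, Gm22988 and Minos1 completed the 10 smallest p-values, again without passing. Csrp1, another LIM-domain protein of the actin cytoskeleton, resembled Zfp185 in its pattern, with -0.77, -0.92 and -0.07 for bone, MC and condylar cartilage. Psmd9, a proteasome assembly factor, resembled Cops9, with -1.88 in MC and -0.48 and -0.24 in bone and condylar cartilage. Rps21, a protein of the small ribosomal subunit, averaged -0.77 ± 0.16 (adjusted p 0.1), with -0.64, -1.18 and -0.48. Selenof, a selenoprotein of the endoplasmic reticulum, averaged -0.49 ± 0.10, with -0.41, -0.74 and -0.31. Minos1, which organises the inner mitochondrial membrane, averaged -0.70 ± 0.16, with -0.51, -1.20 and -0.39, so MC had the largest of the 3 differences in Rps21, Selenof and Minos1. Gm22988, a transcript of 144 bases, had between 0 and 26 counts per library, so its average of -2.04 ± 0.44 (-0.91, -2.46 and -2.75 for bone, MC and condylar cartilage) rests on few fragments.

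**Figure D3:**
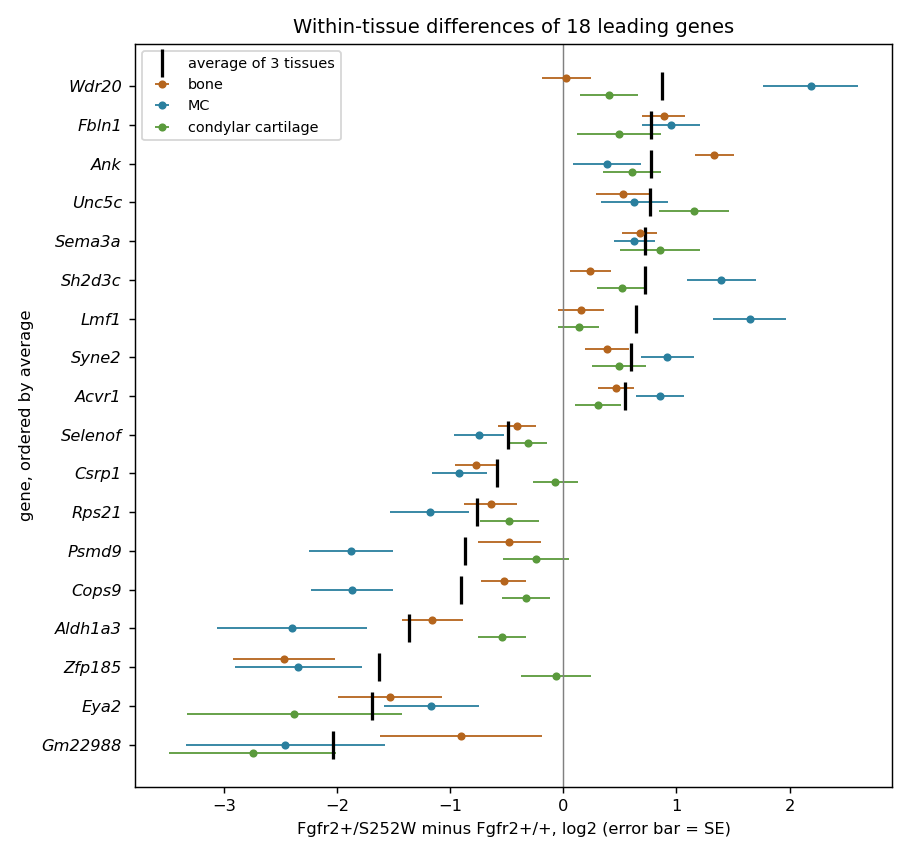
Log2 difference of Fgfr2+/S252W minus Fgfr2+/+ (horizontal axis, error bars SE) in bone, MC and condylar cartilage for the 9 genes of higher and 9 of lower average with the smallest p and 1 direction in all tissues, with the average as a black tick. Sema3a has close differences in all tissues, and MC stands apart for Wdr20, Lmf1, Psmd9 and Cops9.

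Over single libraries, the genotypes were apart in every tissue and in the same direction for 11 genes of higher level (0.0959% of those tested) and 5 of lower level (0.0436%). Beside Sema3a and Sh2d3c, the higher ones included Kmt2e, Smarca2, Fchsd2, Zc3h13, Mllt10, Mga, Ubtf and Arhgap32 (named after their values were seen). Their averages were small, from 0.17 for Arhgap32 to 0.50 for Smarca2 in these 8 genes, and exons of Kmt2e and Mllt10 overlap antisense genes. The lower ones were Aldh1a3, Gm22988, Exosc5, Gm17586 and S100a1, and for Gm22988 the nearest bone libraries of the genotypes were both at 0.268 CPM, a few fragments each. Over embryo means of the 3 tissues, the 3 mutant embryos all lay above the 3 Fgfr2+/+ embryos for 909 genes (7.93%) and all below for 919 (8.01%).

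No shift of Fgfr2 itself was detected on the average. It was at 192 to 278 CPM in Fgfr2+/+ bone and 203 to 230 CPM in Fgfr2+/S252W bone, at 254 to 563 against 261 to 430 CPM in MC, and at 99.4 to 123 against 110 to 150 CPM in condylar cartilage, with overlap in every tissue. The average log2 difference was -0.01 ± 0.13 (adjusted p 0.984), and an exon annotated to Fgfr2 overlaps one of Ctbp2. Fgfr1 was higher in each tissue by 0.53, 0.42 and 0.57, with an average of 0.51 ± 0.24 and an adjusted p of 0.381, and Fgfr3 averaged -0.21 ± 0.17. Of 4 FGF receptor genes tested, 0 passed and 2 (Fgfr1 and Fgfrl1) had 1 direction in all tissues, as 29.3% of all genes did. With upper quartile factors or library totals alone only 1 of the 4 did.

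Of 21 listed feedback and target genes of FGF-ERK signalling, 14 were tested and 0 passed the adjusted threshold. At an unadjusted p below 0.05 on the average, 5 were higher and 0 lower, against 6.5% and 6.32% of all genes. The 5 were the ETS factors Etv5 (0.74 ± 0.24, adjusted p 0.227) and Etv1 (0.80 ± 0.28, adjusted p 0.249), the inhibitors Spry4 (0.86 ± 0.32) and Spred2 (0.32 ± 0.13), and Phlda1 (0.48 ± 0.20). Etv1 had differences of 0.74, 0.80 and 0.87 for bone, MC and condylar cartilage. The last rests on few fragments and has an SE of 0.69, since the condylar values were 0.526, 0.249 and 5.78 CPM in Fgfr2+/+ and 1.74, 1.29 and 2.31 CPM in Fgfr2+/S252W, whose mean is the lower. Etv5 had 0.55, 0.46 and 1.21, Spred2 0.24, 0.46 and 0.26, Phlda1 0.15, 0.84 and 0.47, and Spry4 0.49, 2.64 and -0.54. The embryo means of the genotypes overlapped for Etv5, Etv1 and Spry4 and were apart for Spred2 and Phlda1. Dusp6, an ERK phosphatase, averaged -0.06 ± 0.35. The members with the most counts were Spred1 (0.10 ± 0.10), the cyclin gene Ccnd1 (-0.22 ± 0.16) and Myc (0.08 ± 0.17), each with mixed directions. The median over the 14 genes was 0.26 on the average, against 0.01 over all genes, and 0.24, 0.45 and 0.11 in bone, MC and condylar cartilage. By edgeR's quasi-likelihood test the count of 5 was 2, and without MC it was 1 of 16 genes tested.

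Ribosomal protein genes, which code for the proteins of the cytosolic ribosome, had the largest share lower in all tissues among the lists with 10 or more tested members. Of 88 listed, 84 were tested, 41 were lower in all tissues and 6 higher, where 14.4% and 14.9% of all genes were. At an unadjusted p below 0.05, 30 were lower on the average and 4 higher, against 6.32% and 6.5% of all genes, and 0 passed the adjusted threshold. Rpl34 averaged -0.65 ± 0.15, with -0.71, -0.90 and -0.34 for bone, MC and condylar cartilage, and Rps3 -0.44 ± 0.10, with -0.47, -0.78 and -0.09 (both adjusted p 0.117), and Rpl13 was higher (0.51 ± 0.14, adjusted p 0.193), mainly in MC. Rpl4 and Rps4x, among the members with the most counts, did not have lower averages (0.13 ± 0.09 and 0.03 ± 0.10). The median of the list was -0.18, with -0.22, -0.08 and -0.08 for bone, MC and condylar cartilage, and stayed between -0.19 and -0.17 under the 5 scalings tried. Without Fgfr2+/S252W embryo 3, 27 members were lower in all tissues. As a share of nuclear counts without Gm42418, the summed list was at 2.20% to 3.10% in Fgfr2+/+ bone and 1.89% to 2.45% in Fgfr2+/S252W bone. In MC it was 0.953% to 1.47% against 1.12% to 1.39%, and in condylar cartilage 1.47% to 1.583% against 1.31% to 1.584%. The genotypes overlapped in every tissue. Many of these genes have processed copies elsewhere in the genome, and fragments that mapped to several places were not counted.

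The nuclear genes of oxidative phosphorylation had the same sign. Of 46 tested, 17 were lower in all tissues and 2 higher, 11 were lower on the average at an unadjusted p below 0.05 and 0 higher, and 0 passed. Of all genes, 14.4% were lower and 14.9% higher in all tissues, and 6.32% and 6.5% were lower and higher at that p. Uqcrq, a subunit of complex III, was even across tissues (-0.53, -0.59 and -0.58, average -0.57 ± 0.16, adjusted p 0.193). The members with the most counts, the ATP synthase genes Atp5b and Atp5a1 and the complex II gene Sdha, averaged 0.13 ± 0.11, -0.13 ± 0.09 and 0.14 ± 0.10. The median was -0.15, and the bone median of -0.07 turned to 0.11 with library totals alone as the scaling.

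Both of these lists hold short genes, and gene length moved with the shared direction. Of 5 equal classes of genes by exon length, in the shortest (up to 1394 bases), 24.7% were lower in all tissues and 7.32% higher, and in the longest (from 5147 bases) 5.19% were lower and 25.2% higher. The median difference went up with length in bone, from -0.21 to 0.15, and in condylar cartilage, from -0.13 to 0.07, and not in MC, where it ran from 0.01 to 0.04. The median exon length was 882 bases for the ribosomal protein genes and 1136.5 bases for those of oxidative phosphorylation, against 2980 bases over all genes. After a smooth curve on length was taken off each tissue's differences, 28 ribosomal protein genes were lower in all tissues and 17 higher, and the list's median was -0.11, with -0.03, -0.17 and 0.03 for bone, MC and condylar cartilage, so the condylar sign turned. Of the oxidative phosphorylation genes 11 were then lower in all tissues and 1 higher, with a median of -0.10 on the average and of 0.09 in bone, where the sign turned. The FGF-ERK list, with a median length of 3268 bases, had a median of 0.28 after the same step. The part of gene length in these results was not tested beyond these values.

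**Figure D4:**
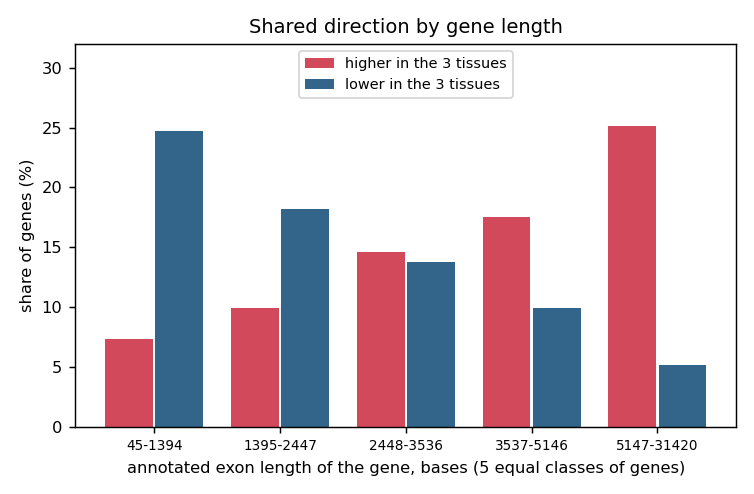
Share of genes (vertical axis, %) with 1 direction in all tissues, in 5 equal classes of genes by annotated exon length in bases: higher in Fgfr2+/S252W in red, lower in blue. The blue share runs from 24.7% in the shortest class down to 5.19% in the longest, and the red share from 7.32% up to 25.2%.

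Matrix remodelling genes had 4 of 15 members higher on the average at an unadjusted p below 0.05 and 0 lower, against 6.5% and 6.32% of all genes, namely Adamts12, Mmp16, Mmp2 and Reck, of which Mmp16 (0.48, 0.54 and 0.29) and Reck had 1 direction in all tissues. Adamts12 (average 0.42 ± 0.11, adjusted p 0.191) had 0.61, -0.03 and 0.67 for bone, MC and condylar cartilage, and Mmp2 0.50, -0.08 and 0.39. Jaw patterning genes gave 1 higher (Foxc2) and 1 lower (Msx2, -1.06 ± 0.39) of 18. BMP pathway genes, a list of ligands, inhibitors and targets without the receptor gene Acvr1, gave 1 higher (Bmp4) and 1 lower (Bambi) of 14, Notch genes 0 of 7 and Wnt antagonists and targets 0 of 14. The counts of 1 were near the share over all genes.

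Several averages near 0 or large in size came from tissues that went opposite ways. Osteoclast genes had a median of 0.78 in bone and -0.82 in MC, and an average of 0.13. The 7 macrophage genes tested had a median of -1.45 in bone and 1.64 in MC, and an average of 0.12, but single members differed. C1qb, C1qc, Lyz2 and Pf4 were lower in bone and higher in MC, whereas the lysosomal glycoprotein gene Cd68 was at 0.97 in bone and 0.29 in MC and Tyrobp at 0.08 and -1.09. The summed level of the macrophage list in bone was 0.0389% to 0.0423% in Fgfr2+/+ and 0.0384% to 0.0466% in Fgfr2+/S252W, as a share of nuclear counts without Gm42418, a transcript that overlaps ribosomal RNA. In MC it was 0.0133% to 0.0172% against 0.0245% to 0.0335%, without overlap. Cartilage matrix genes had a median of 1.19 in MC and of -0.01 and -0.09 in bone and condylar cartilage, so their average median of 0.45 came from MC, whose Fgfr2+/S252W libraries held 0.665% to 2.54% of the same counts in these genes against 0.239% to 0.811% in Fgfr2+/+. Skeletal muscle genes, of which 6 of 14 were tested, had medians of -3.27, 1.00 and -2.02 for bone, MC and condylar cartilage, and in MC 2 of the 6 were lower. Their summed level was 0.0308% to 0.202% of the same counts in Fgfr2+/+ bone and 0.0131% to 0.0327% in Fgfr2+/S252W bone. In MC it was 0.0102% to 0.187% against 0.0113% to 0.0745%, with overlap, so the sum was not higher there as the median was. Red blood cell genes, of which 6 of 11 were tested, had medians of -1.45, -0.48 and 0.57 for bone, MC and condylar cartilage. Their summed level was 0.272% to 0.337% of the same counts in Fgfr2+/+ bone and 0.0665% to 0.126% in Fgfr2+/S252W bone, and overlapped in both cartilages. The part of unequal capture of neighbouring tissue in these averages was not tested. Epithelial genes had 0 of 14 members above the filter, and nerve and adipocyte lists 1 each.

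**Figure D5:**
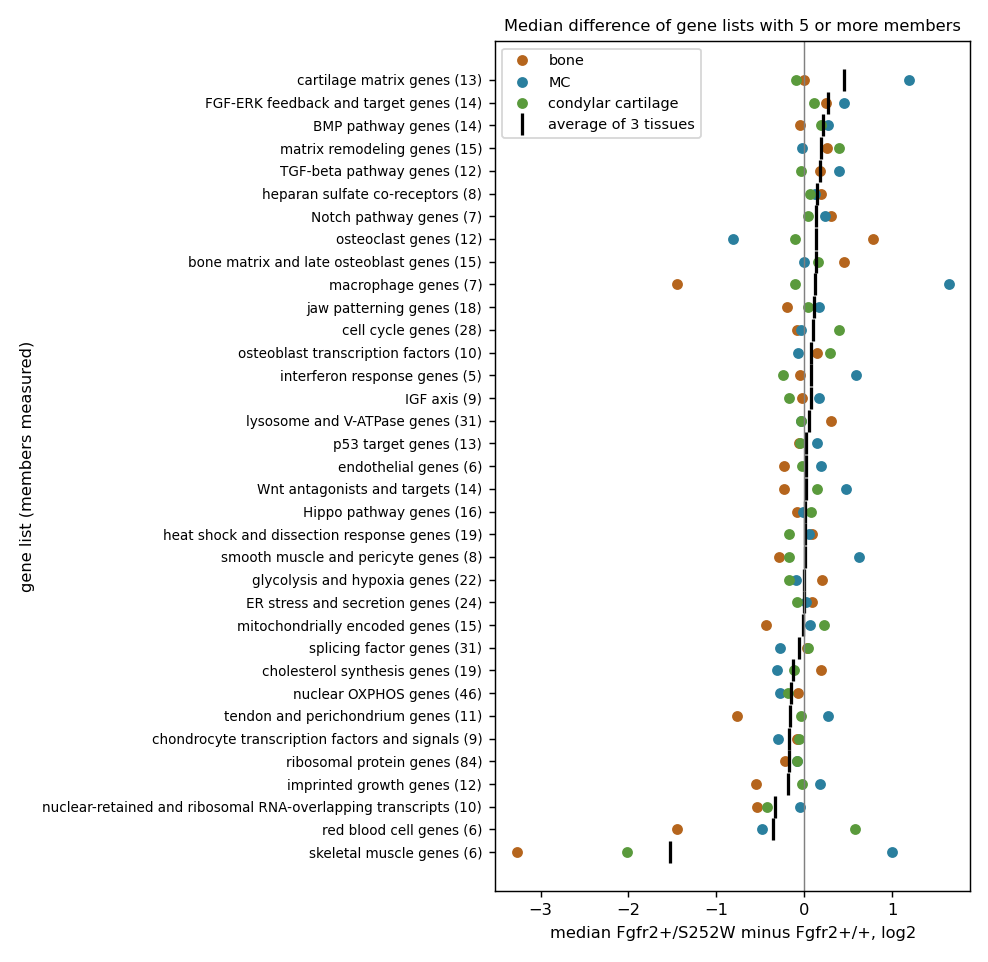
Median log2 difference of Fgfr2+/S252W minus Fgfr2+/+ for each gene list with 5 or more tested members (number in brackets), by tissue (coloured points) and on the average (black tick). Macrophage and osteoclast lists have bone and MC on opposite sides of 0, and the FGF-ERK list has all tissues above 0.

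The differences between tissues were tested directly. By a limma F test, 1061 genes (9.25%) had effects that differed between tissues at an unadjusted p below 0.05, and 0 passed adjustment, the smallest adjusted p being 0.0568 (2 genes passed without the embryo block, and 2 by edgeR's quasi-likelihood test). The 5 smallest belonged to Penk, Sfrp1, C1qb, Lyz2 and Atp6v1b2, each with bone and MC of opposite sign. Within tissues, 10 genes passed in bone, 1 in MC (Coa5, which fell) and 0 in condylar cartilage, and at an unadjusted p below 0.05 the counts were 925, 1760 and 349. Of the 10 that passed in bone, Zfp185 and Tppp3 fell, Ank and Gnptab rose, and these 4 had 1 direction in all tissues. The remaining 6 were Penk, Cdkn1c, Rpl15, Lyz2, Xpr1 and Slc37a2, each with another sign in at least 1 other tissue.

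Genes near the mutated locus were counted too. Within 10 Mb of Fgfr2 on chromosome 7, 52 of 156 tested genes (33.3%) had 1 direction in all tissues, against 29.3% over all genes, and the smallest adjusted p on the average was 0.253. Across chromosomes the share ran from 26.0% to 32.1%.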

How the data were processed

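The authors aligned paired reads with STAR to mm10 and counted fragments per gene with featureCounts (1.5.0-p1), without strand, on Ensembl 75 gene models of GRCm38, and deposited whole-number counts per library, not normalised. Fragments with several alignments or several genes were not counted. Gene symbols came from GENCODE for 36964 of 38243 IDs.

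Here, a gene was kept where 50% or more of the libraries exceeded 1 FPKM, and kept genes were fitted with voom and limma (3.58.1) after TMM scaling (edgeR 4.0.16) in R 4.3.3, with 1 mean for each of 6 genotype and tissue groups and the embryo as a random block, whose consensus correlation was -0.02. The contrast was the mean of the 3 within-tissue differences. P-values were adjusted by Benjamini-Hochberg over all 11469 genes, with 0.05 as the threshold. CPM values are TMM-scaled. The embryo is the replicate, and the 3 libraries of an embryo share it. P-values from 18 libraries lean on tissues of 1 embryo varying independently. Deviations of tissues of 1 embryo correlated at -0.00138 on average (18 pairs). No 2 libraries held identical counts.

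Named genes were the 10 smallest p on the average with 1 direction in all tissues, each way, genes past the threshold, Fgfr2, the 5 smallest F test p-values, and list members of highest level or past the threshold. Members of smallest p within a list were named beyond this rule, after their values were seen. The members and lists were chosen with earlier results of these data known. The script was tested on simulated data. Alternatives were edgeR, DESeq2 (1.42.0), other scalings, filters and weights, and leaving out libraries, embryos and tissues. A curve on gene length, weights per tissue, library totals as scaling for the average, and list counts under each setting were added after seeing the data. Some results that the rule would name are not reported here.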

Additional observations from a re-analysis of the deposited data

Results flagged for a closer look

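For 5 genes named by the F test, the genotypes were apart in 2 or 3 tissues with opposite signs, so their averages over the tissues combine differences of opposite sign. The F test picks genes whose effects differ between tissues, so their opposite signs are not separate evidence, and none of them passed adjustment. Their adjusted p in the F test was 0.0568 for Penk and Sfrp1 and 0.0939 for C1qb, Lyz2 and Atp6v1b2. Penk, which codes for enkephalin, had log2 differences of -1.92 in bone and 0.58 in MC. Sfrp1, a secreted Wnt antagonist, had -0.78 in bone and 1.18 in MC. Of the 7 macrophage genes tested, C1qb had -2.26, 2.36 and -1.997 for bone, MC and condylar cartilage, where condylar libraries held under 1 CPM, and Lyz2 had -1.47 in bone and 1.90 in MC. Cd68, of the same list, had 0.97 and 0.29. Atp6v1b2, a proton pump subunit that osteoclasts hold at high levels, went the other way, with 0.91 in bone and -1.04 in MC. The groups hold 3 libraries each, so single libraries were not tested as outliers.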

How the results depend on the processing

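The count of 2 genes on the average was 1 without the embryo block, after the length curve and without condylar cartilage, 0 with 1 mean value per embryo, with filterByExpr, with no filter, with library totals alone, with 1 weight per tissue and without bone, 3 with the additive model (Sema3a, Ank and Fbln1, all higher), 4 with edgeR and with robust eBayes, 6 without MC, 16 with edgeR on embryo sums and 75 with DESeq2. The calls with the additive model, on embryo sums and without MC held neither Zfp185 nor Cops9, and those of edgeR, robust eBayes and DESeq2 held both. With sample quality weights the count stayed at 2, but the genes were Zfp185 and Sema3a, and Cops9 had a limma adjusted p of 0.0693. The replicate block gave 36, but the deviations of same-numbered libraries of the 2 genotypes correlated unevenly, at -0.08 to 0.24 in bone, 0.07 to 0.35 in condylar cartilage and -0.21 to -0.06 in MC, and not every pair was over 0.1, so the numbers were not taken as pairs. Leaving out 1 library or embryo gave 0 to 70, with 70 without Fgfr2+/+ embryo 3, 39 without its bone library and 18 without its MC library. The F test count of 0 was 2 without the embryo block and with edgeR, 1 under the replicate block and 0 to 13 with 1 library out, the highest without Fgfr2+/+ MC replicate 2. The MC count of 1 was 0 without the embryo block. The count of shared directions stayed between 2671 (library totals) and 4150 (filterByExpr, more genes tested). Averages changed sign for Sfrp1 without MC (-0.36), Lyz2 on embryo sums (-0.68) and Atp6v1b2 without bone (-0.37), lay on both sides of 0 for Fgfr2 (-0.17 to 0.15), C1qb (-2.11 to 0.30) and Penk (-1.07 to 0.19), and kept their sign in every setting for the 20 genes of smallest p. The causes were not tested.

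With 3 embryos a side, the median SE of an average was 0.17, and the smallest average difference that passed over 11469 genes was -0.91. Zfp185 passed in 21 of 44 settings and Cops9 in 14.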

Other observations

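Cell cycle genes had a median of 0.40 in condylar cartilage and of -0.09 in bone and -0.04 in MC, and 2 of 28 (Mki67 and Cenpe, both higher) had an unadjusted p below 0.05 on the average, near the 6.5% of all genes that were higher at that p. Chad, a leucine-rich protein of cartilage matrix, was the cartilage matrix gene with the smallest p and the same sign in all tissues, at 0.93, 1.31 and 1.73 for bone, MC and condylar cartilage (average 1.32 ± 0.40, limma adjusted p 0.211). Among ER stress and secretion genes, 4 of 24 were lower on the average at an unadjusted p below 0.05 and 0 higher, against 6.32% and 6.5% of all genes. Of 10 genes with an unadjusted p below 0.05 in every tissue, 6 changed sign between tissues: Spc25, Coro1c, Ccnd1, Pcp4, Fam3c and Med21, named after their values were seen. Ccnd1, a cyclin of the G1 phase, had -0.72, -0.60 and 0.66 for bone, MC and condylar cartilage.

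The share of genes with an unadjusted p below 0.05 on the average went up with level, from 8.85% in the lowest of 5 equal classes by mean level to 20.4% in the highest, as the median SE of the average went down from 0.36 to 0.11 on the log2 scale.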
